A study of Mus musculus with 3 samples.

Results

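The 50 genes described here encode the machinery that separates chromosomes and divides the cell: mitotic kinases, the spindle checkpoint, the kinetochore, mitotic kinesins and spindle proteins, and the cytokinesis apparatus. They were taken from a list of names made for this work with earlier results of these data known, and each was read from 1 probe set, the brightest of those annotated with that symbol alone. All 50 were found among the 18193 genes with such a probe set. Primary epidermal keratinocytes of neonatal ICR mice had been compared on Affymetrix GeneChip Mouse Genome 430 2.0 arrays. The wild type (WT) was represented by 1 array, and homozygous RASSF9-/- keratinocytes by 2 arrays, called RASSF9-/- array 1 and array 2 here. The RASSF9-/- mice descend from a single line in which an Epstein-Barr virus LMP1 transgene had inserted into Rassf9 and deleted a stretch of its first intron, so that the mutant group carries the transgene and WT does not. Each sample came from 1 mouse and 1 plate, grown to confluence in low-calcium keratinocyte serum-free medium. The sample labels give a culture of 24 h for WT and 48 h for RASSF9-/-, whereas the methods state the same time for every sample. If the labels are right, the effects of genotype and of time in culture cannot be told apart.

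In a dividing cell, Cdk1 with its cyclins starts mitosis, Aurora and Polo-like kinases build the spindle, and kinetochores attach chromosomes to microtubules. The spindle checkpoint restrains the anaphase-promoting complex until all chromosomes are attached, after which separase opens the cohesin rings and the contractile ring cuts the cell. Most of these genes are transcribed late in the cell cycle and are low in resting cells, and in the epidermis division belongs to the basal layer, which low-calcium medium favours in culture. Many of their promoters carry a cell cycle genes homology region (CHR), bound by the DREAM and MuvB complexes, and CCAAT boxes, bound by NF-Y.

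Signals are MAS5 intensities on a linear scale. A signal under 78.4, the highest of 27 Bacillus control probe sets over the 3 arrays, was treated as background. This limit was set by array 1. The highest control signal was 36.1 on WT and 51.6 on array 2, so the limit is strict for WT. Where an array lay under it, a fold is given as a lower bound, with that signal raised to the limit. The WT array has no replicate, so the fit takes its error from the spread between the RASSF9-/- arrays and from all genes, and p-values say nothing of the spread between WT mice.

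Of the 50 genes, 44 had higher signals on both RASSF9-/- arrays than on WT, against 33.4% of all genes, and 0 had lower signals on both, against 31.8% of all genes. Cdk1, the kinase that drives mitotic entry, and Top2a, the topoisomerase that untangles sister chromatids, were at least 9.20-fold and at least 9.95-fold above WT in the mean of the RASSF9-/- arrays. The Top2a bound is that of its brightest probe set, and another Top2a probe set was lower on both RASSF9-/- arrays than on WT. Ube2c, the ubiquitin-conjugating enzyme of the anaphase-promoting complex, was 8.37-fold above WT. The genes with opposite differences on the 2 arrays were Bub3, Cenpn, Kif15, Kif18a, Kif23 and Foxm1. The median difference of the 50 genes, RASSF9-/- mean minus WT, was 1.65 on the log2 scale, with 1.21 on array 1 and 2.13 on array 2. The same median over all 18193 genes was -0.01, with 0.08 and -0.06. With signals under the limit raised to it, the medians of the 50 genes were 1.12, 0.74 and 1.54. Both differences share the WT array, so they are not independent of each other.

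None of these differences passed the test. With limma's moderated test and Benjamini-Hochberg adjustment over the 11089 genes bright enough to be tested, 9 genes (0.0812%) were called higher in RASSF9-/- at an adjusted p under 0.05, and 0 of the 36 tested mitotic genes were among them. The lowest adjusted p of a mitotic gene was 0.240, for Mki67. At an unadjusted p under 0.05, limma placed 18 of the 36 higher and 0 lower, against 3.11% of the tested genes higher. The brightness filter looks at all 3 arrays, so dim WT genes passed through their RASSF9-/- signals. Without the filter, 24 of the 50 genes had an unadjusted limma p under 0.05 and were higher, against 3.04% of all genes, the lowest adjusted p was 0.302, and 0 were lower. A t-test on the same values, the methods' general test, gave an unadjusted p under 0.05 for 0 of the 36, against 2.33% of the tested genes higher. It has 1 degree of freedom, so that little can be read from this 0.

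A difference of at least 2-fold on both arrays was seen for 31 genes, against 7.02% of all genes. With signals raised to the limit it was seen for 15 genes, against 1.4% of all genes. Of the 50 genes, 31 lay under the limit on WT, 10 on array 1 and 2 on array 2. The pattern of a WT signal under the limit and signals above it on both RASSF9-/- arrays was shown by 21 genes (42.0%), and by 379 of all genes (2.08%). The reverse pattern was shown by 0 of the 50 and by 450 of all genes. By the highest control of the WT array itself, 14 of the 50 were under background on WT. Among the 19 genes with a WT signal above the limit, 16 were higher on both arrays, against 30.0% of all genes above it on WT. Some of these WT signals lay close to the limit, among them those of Cdca3 (79.4), Hmmr (87.2), Racgap1 (89.6) and Ube2c (90.3). A difference of at least 2-fold on both arrays was seen for 8 of these 19, against 1.79%. Their median difference was 1.24 on the log2 scale. In bulk RNA, more dividing cells and more of these transcripts in each cell cannot be told apart.

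**Figure D1:**
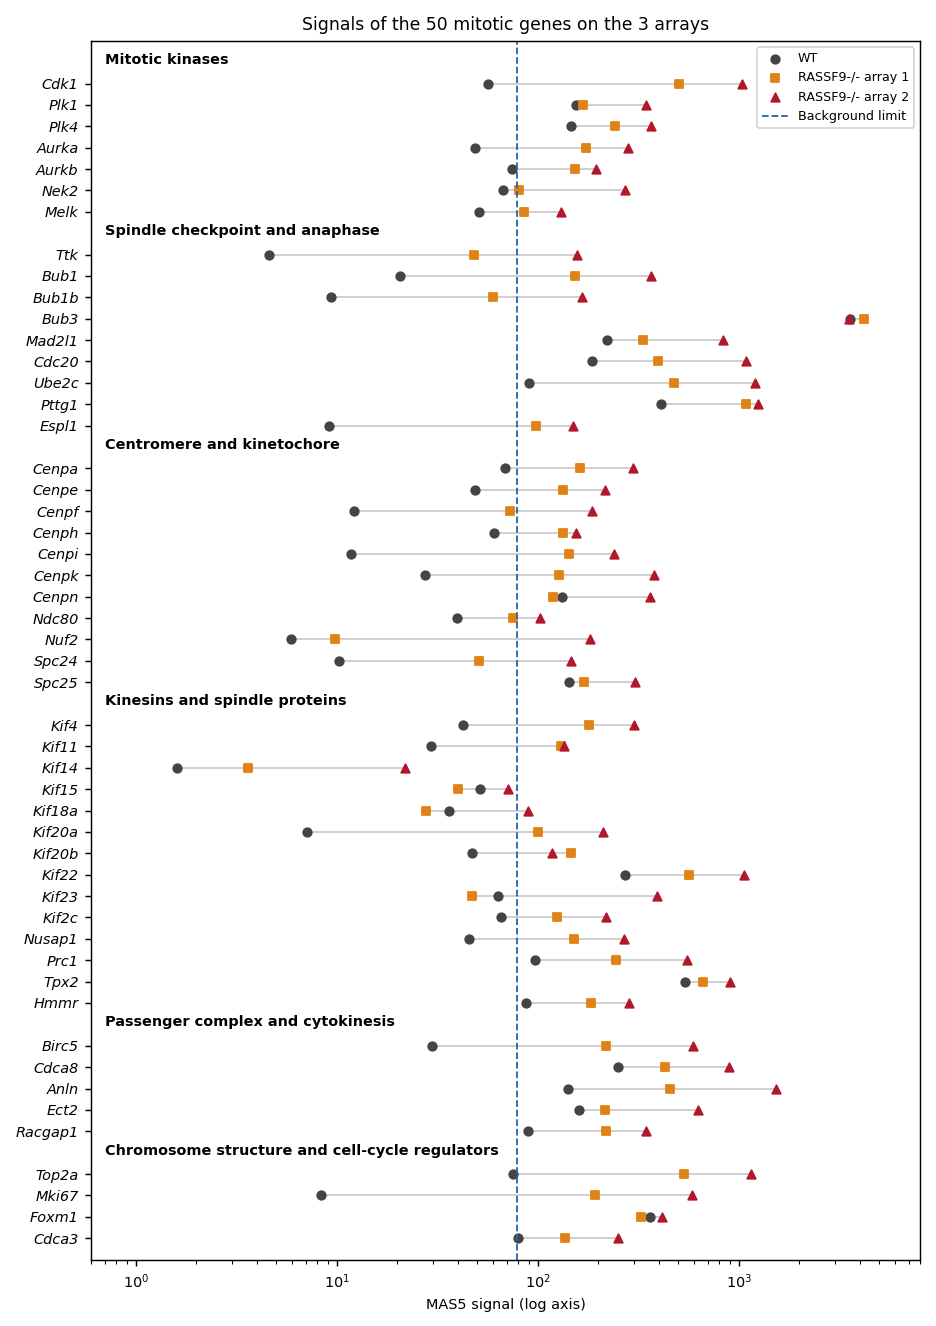
MAS5 signals (log axis) of the 50 mitotic genes, by role, on the WT array (circles), RASSF9-/- array 1 (squares) and RASSF9-/- array 2 (triangles), with 1 point per array and the background limit of 78.4 as a dashed line. The WT signal is the lowest of the 3 for 44 genes, and 31 WT signals lie left of the limit.

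Promoter sequence is shown next because most of these genes were higher together on the RASSF9-/- arrays and belong to a class with well known promoter elements. RefSeq promoter windows of build GRCm38.p6, from 250 bases before to 50 bases after a transcription start, were given for 45 of the 50 genes. The CHR was searched as TTTGAA, and the CCAAT box as CCAAT, each on both strands (reverse complements TTCAAA and ATTGG). A CHR was present for 31 of the 45 genes (68.9%), against 15.7% of 14452 genes on the array with a window and 20.2% of all 27025 genes of the promoter table. From 50 bases before the start onward it was present for 28 of the 45 genes (62.2%), against 4.09% of the genes on the array. The CCAAT box was present for 32 of the 45 (71.1%), against 42.0% of the genes on the array and 41.1% of all genes. Both motifs were found for 26 genes (57.8%), against 6.21% of the genes on the array. Other mitotic genes share much of this. Of 82 genes with a window from the further list described below, 43.9% held a CHR, and 32.9% held it from 50 bases before the start onward. A CCAAT box was present for 62.2% of them and both motifs for 31.7%. The median GC content of the windows was 58.2% for the mitotic genes and 58.3% for the genes on the array. GCGG followed after 4 bases by TTTGAA, the cell cycle-dependent element next to a CHR, was found for Cdk1 and Cenpf, and for 0.118% of the genes on the array. These matches are letters in a window and no measure of binding.

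The 200 bases before the start are printed for 8 genes, in capitals where a CHR or a CCAAT box matched. The first 5 hold both motifs and lay at least 3.50-fold above WT, Bub1 holds only CCAAT boxes, Birc5 holds neither, and Bub3 holds both although its signal hardly differed between arrays.
Cdk1 (chr10:69352913-69353112, minus strand): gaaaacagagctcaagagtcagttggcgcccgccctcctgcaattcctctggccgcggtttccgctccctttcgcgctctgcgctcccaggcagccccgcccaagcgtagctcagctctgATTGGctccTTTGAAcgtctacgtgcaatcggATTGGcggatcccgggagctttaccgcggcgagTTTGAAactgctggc
Mki67 (chr7:135716380-135716579, minus strand): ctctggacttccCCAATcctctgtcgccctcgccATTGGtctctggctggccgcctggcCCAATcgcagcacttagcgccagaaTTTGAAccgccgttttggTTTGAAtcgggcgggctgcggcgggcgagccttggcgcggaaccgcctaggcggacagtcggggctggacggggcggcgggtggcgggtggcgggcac
Top2a (chr11:99024190-99024389, minus strand): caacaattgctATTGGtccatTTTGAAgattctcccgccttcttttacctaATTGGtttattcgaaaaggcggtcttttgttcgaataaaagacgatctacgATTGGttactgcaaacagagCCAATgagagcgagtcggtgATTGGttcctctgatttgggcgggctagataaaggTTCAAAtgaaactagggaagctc
Ube2c (chr2:164769729-164769928, plus strand): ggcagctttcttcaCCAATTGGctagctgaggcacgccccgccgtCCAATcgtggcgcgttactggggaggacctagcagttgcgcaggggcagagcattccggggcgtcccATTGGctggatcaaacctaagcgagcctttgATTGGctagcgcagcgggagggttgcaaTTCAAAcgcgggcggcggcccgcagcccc
Cdc20 (chr4:118437344-118437543, minus strand): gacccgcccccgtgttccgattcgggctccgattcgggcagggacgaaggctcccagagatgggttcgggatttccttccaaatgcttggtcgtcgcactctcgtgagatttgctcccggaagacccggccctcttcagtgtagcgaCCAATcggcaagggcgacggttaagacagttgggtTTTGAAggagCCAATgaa
Bub1 (chr2:127831860-127832059, minus strand): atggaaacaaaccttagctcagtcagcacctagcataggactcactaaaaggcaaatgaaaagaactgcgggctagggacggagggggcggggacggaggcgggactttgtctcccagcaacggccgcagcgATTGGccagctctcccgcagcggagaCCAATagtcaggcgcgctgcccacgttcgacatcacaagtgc
Birc5 (chr11:117849037-117849236, plus strand): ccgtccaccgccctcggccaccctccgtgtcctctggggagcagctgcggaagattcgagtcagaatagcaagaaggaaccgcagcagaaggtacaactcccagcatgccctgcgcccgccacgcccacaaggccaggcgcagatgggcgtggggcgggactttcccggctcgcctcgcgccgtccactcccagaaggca
Bub3 (chr7:131560170-131560369, plus strand): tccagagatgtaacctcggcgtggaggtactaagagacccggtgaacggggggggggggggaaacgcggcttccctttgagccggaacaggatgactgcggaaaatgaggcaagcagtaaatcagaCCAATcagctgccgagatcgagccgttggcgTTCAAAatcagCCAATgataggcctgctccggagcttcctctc
The Cdk1 stretch has 2 CHR matches, and the one nearest the start begins 15 bases before it. The 2 CHR matches of Mki67 begin 116 and 98 bases before the start, and those of Top2a begin 179 and 23 bases before it. Cdc20 and Ube2c hold 1 match each, which begins 18 and 29 bases before the start. Top2a and Ube2c hold the most CCAAT boxes of the 8, with 5 each in the stretch shown. Of the 28 genes with a window that were at least 2-fold higher on both arrays, 20 held a CHR, and of the 17 others, 11 did. The 8 genes with neither motif were Birc5, Kif18a, Mad2l1, Melk, Nuf2, Nusap1, Plk4 and Pttg1.

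**Figure D2:**
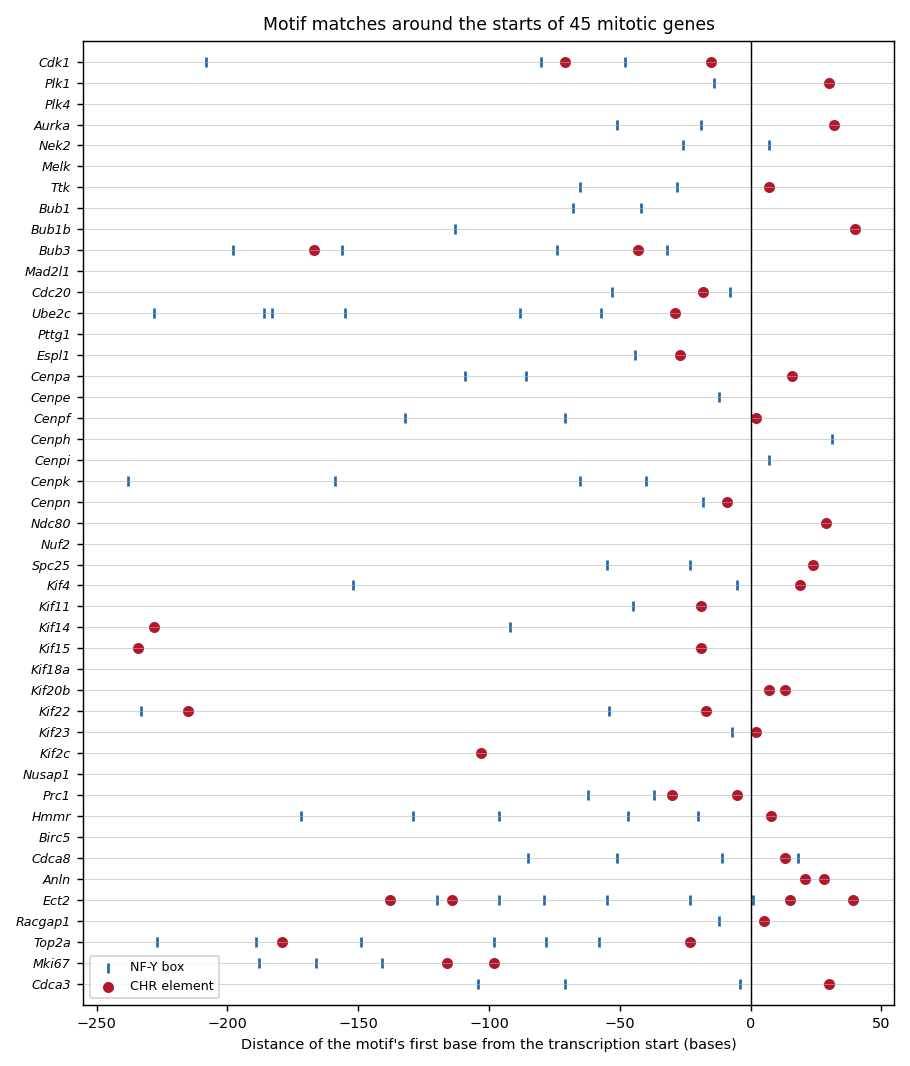
Positions of CHR elements (circles) and NF-Y boxes, the CCAAT boxes (bars), in promoter windows of 45 mitotic genes, 1 row per gene with all its windows, as the distance in bases of the motif's first base from the transcription start (line at 0). CHR matches of 28 genes lie from 50 bases before the start onward.

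The 7 mitotic kinases all had their lowest signal on WT and their highest on array 2. Cdk1 had signals of 56.7 on WT, 503 on array 1 and 1033 on array 2 (adjusted p = 0.257, limma). Both RASSF9-/- signals were several times the background limit, while WT lay under it. Aurka, which matures centrosomes and builds the spindle poles, had signals of 48.4, 174.5 and 279.5 on WT, array 1 and array 2, at least 2.82-fold above WT. Aurkb, the kinase of the chromosomal passenger complex, had signals of 74.5, 152 and 196 in the same order, at least 2.20-fold. For both Aurora kinases only the WT signal was under the limit. Plk1, the Polo-like kinase needed for spindle assembly and mitotic exit, had signals of 154, 167 and 347, with array 1 close to WT. Plk4, which licenses centriole duplication, had signals of 146, 243 and 365, or 2.04-fold above WT in the mean. The Plk1 difference was 0.64 on the log2 scale (SE 0.65), no larger than its error. Nek2, which separates centrosomes, had signals of 67.3, 80.3 and 272, so that its array 1 signal lay just above the limit. Melk, a kinase transcribed with the mitotic genes, had signals of 50.7, 85.6 and 130.3 and was too dim for the test.

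Among the 9 spindle checkpoint and anaphase genes, 8 were higher on both arrays. At least 2-fold on both arrays were 7 as deposited, and 3 with signals raised to the limit. Ube2c had signals of 90.3 on WT, 474 on array 1 and 1207 on array 2, with a log2 difference of 3.07 (SE 0.66, adjusted p = 0.346, limma). Cdc20, the activator of the anaphase-promoting complex that the checkpoint holds back, had signals of 187, 394 and 1083, a log2 difference of 1.81 (SE 0.68, adjusted p = 0.829). These 2 genes of the complex were above the limit on all arrays, and array 2 was more than 2-fold above array 1 in both. Pttg1, the securin that inhibits separase, had signals of 408, 1090.4 and 1249, or 2.86-fold above WT. Espl1, separase itself, had signals of 9.1, 98.1 and 149.5, which is at least 1.54-fold. The Pttg1 signals of the RASSF9-/- arrays were close to each other and both far above WT. Bub1, a checkpoint kinase at the kinetochore, had signals of 20.5, 153.5 and 365, at least 3.02-fold above WT. Mad2l1, which encodes the MAD2 inhibitor of CDC20, had signals of 222, 332.5 and 829.6, or 2.37-fold above WT. Bub3, the checkpoint protein that recruits BUB1 and BUBR1, had signals of 3562, 4192 and 3525.5. It was the brightest of the 50 genes on every array, and its log2 difference of 0.11 (SE 0.34) was smaller than its error. Ttk, the kinase that starts checkpoint signalling, had signals of 4.6, 48.0 and 156, and Bub1b, which encodes BUBR1, had 9.4, 59.9 and 165. Both were above the limit on array 2 alone, where they were at least 1.99-fold and at least 2.10-fold above WT.

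The centromere and kinetochore genes were dim. Of 11, 9 lay under the limit on WT and 4 on array 1, and 10 were higher on both arrays. Cenpa, the histone H3 variant that marks centromeres, had signals of 68.4 on WT, 162 on array 1 and 297 on array 2, at least 2.80-fold above WT. Cenpe, a kinetochore kinesin that carries chromosomes to the spindle equator, had signals of 48.8, 133 and 216, at least 2.16-fold. In both, the RASSF9-/- signals were above the limit and WT was under it. The members of the inner centromere network differed among themselves. Cenpi had signals of 11.7, 142 and 239, at least 2.35-fold above WT. Cenpk had signals of 27.4, 128 and 379.7, at least 2.81-fold. Cenph had signals of 60.6, 133.5 and 154, at least 1.83-fold. Cenpn, from the same network, went opposite ways on the RASSF9-/- arrays, with signals of 131, 119 and 363. Cenpf, a large coiled-coil protein of the outer kinetochore, had signals of 12.2, 72.9 and 186.5. The NDC80 complex, which grips microtubules, has 4 subunits. Ndc80 had signals of 39.6, 75.6 and 103. Nuf2 had signals of 5.9, 9.8 and 182. Spc24 had signals of 10.3, 50.9 and 146.5. These 3 subunits and Cenpf passed the limit on array 2 alone, where they were at least 1.31-fold (Ndc80) to at least 2.38-fold (Cenpf) above WT. Spc25 was above the limit on every array, with signals of 142, 170.5 and 302.5 and a log2 difference of 0.67 (SE 0.61).

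Kinesins and other spindle proteins made up 14 genes, of which 11 were higher on both arrays. At least 2-fold on both arrays were 9 as deposited, Kif14 among them although all its signals are background, and 4 with signals raised to the limit. Kif22, a chromokinesin that pushes chromosome arms outward, had signals of 270.5 on WT, 564 on array 1 and 1063 on array 2, a log2 difference of 1.52 (SE 0.54, adjusted p = 0.772, limma). Kif4, a chromokinesin of the chromosome arms and the central spindle, had signals of 42.4, 179 and 302, at least 2.96-fold above WT. Prc1, the microtubule bundler of the central spindle that works with Kif4, had signals of 97.3, 245 and 554, or 3.79-fold above WT. For Kif22 and Prc1 the order of arrays was the same and all signals lay above the limit. A second Prc1 probe set, also above the limit on every array, had 96.4, 96.8 and 439, so array 1 hardly differed from WT there. Kif11, the motor that pushes spindle poles apart, had signals of 29.3, 131 and 135, at least 1.69-fold above WT. Kif20a, a motor of the central spindle, had signals of 7.1, 99.8 and 211, at least 1.85-fold. Kif20b, another motor of late mitosis, had signals of 47.2, 146 and 117.5, at least 1.67-fold. Kif20b and Bub3 were the 2 genes of the 50 whose signal was lower on array 2 than on array 1. Kif2c, the depolymerase that corrects wrong attachments, had signals of 65.5, 124 and 218, at least 2.10-fold above WT. Nusap1, which bundles microtubules near chromosomes, had signals of 45.2, 151 and 269, at least 2.57-fold. Hmmr, a spindle pole protein also known as a hyaluronan receptor, had signals of 87.2, 184 and 285, or 2.63-fold. These 3 genes shared the order of WT, array 1 and array 2. Tpx2, which activates Aurora A on the spindle, was bright on WT too, with signals of 541, 659.7 and 903 and a log2 difference of 0.51 (SE 0.44). Kif23, the motor subunit of centralspindlin, had signals of 63.1, 47.1 and 389.6. Kif18a, which dampens chromosome movements, had signals of 36.1, 27.6 and 88.9. Neither was above the limit on WT or array 1, and on array 2 they were at least 4.97-fold and at least 1.13-fold above WT. Kif14 and Kif15, motors of cytokinesis and of spindle bipolarity, lay under the limit on all 3 arrays and get no fold.

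All 5 genes of the passenger complex and of cytokinesis were tested, and all 5 were higher on both arrays. Anln, the anillin scaffold of the contractile ring, had signals of 141 on WT, 453 on array 1 and 1528 on array 2, a log2 difference of 2.56 (SE 0.75, adjusted p = 0.601, limma). Its array 2 signal was the highest of the 50 genes after Bub3. Racgap1, the GTPase-activating subunit of centralspindlin, had signals of 89.6, 219 and 344, or 3.06-fold above WT. Ect2, the exchange factor that activates RhoA at the equator, had signals of 161, 215.5 and 628, or 2.28-fold. For Ect2 array 1 lay nearer to WT than to array 2. Birc5, survivin of the passenger complex, had signals of 29.8, 218 and 588, at least 4.56-fold above WT (adjusted p = 0.346). Cdca8, borealin of the same complex, had signals of 250.5, 428 and 890.0, or 2.46-fold.

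Of the remaining 4 genes, Top2a had signals of 74.9 on WT, 531 on array 1 and 1145.5 on array 2 (adjusted p = 0.323, limma). Mki67, which encodes the proliferation antigen Ki-67 that coats mitotic chromosomes, had signals of 8.3, 193 and 587.5, at least 4.30-fold above WT. Cdca3, a mitotic entry factor, had signals of 79.4, 136 and 249, or 2.32-fold. Foxm1, the transcription factor that activates many late cell-cycle genes, had signals of 360.4, 325.5 and 416 and a log2 difference of 0.03 (SE 0.49). Its difference was much smaller than its error.

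**Figure D3:**
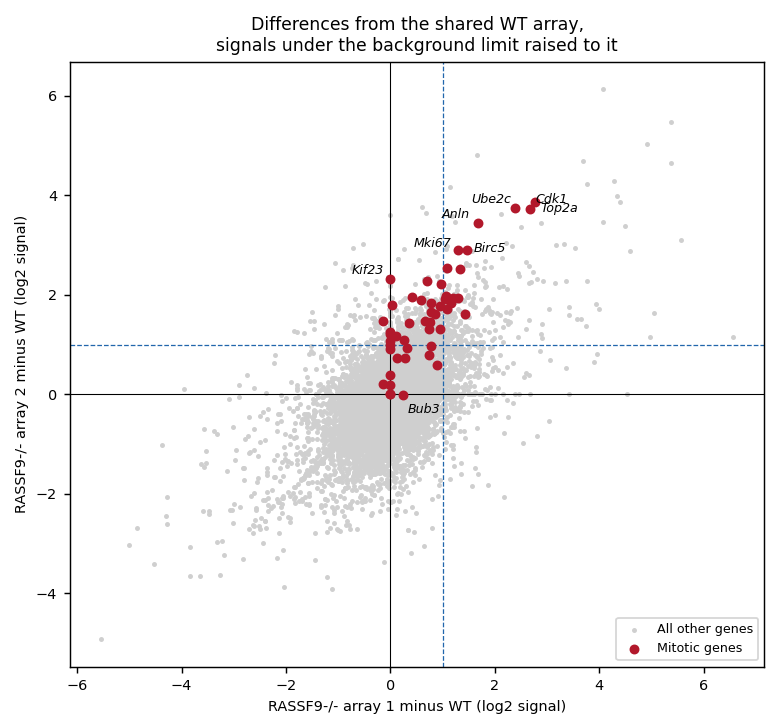
Difference in log2 signal from WT on RASSF9-/- array 1 (horizontal) and array 2 (vertical), with signals under the background limit raised to it, for the 50 mitotic genes (large points) and all other genes (small points); dashed lines mark 2-fold. With this limit 15 of the 50 lie beyond both dashed lines, and both axes share the WT array.

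The 2 RASSF9-/- arrays differed from each other. Array 2 was above array 1 for 48 of the 50 genes, against 42.6% of all genes, by a median of 0.98 on the log2 scale, where the median over all genes was -0.14. The order WT, array 1, array 2 was shown by 43 of the 50, against 16.3% of all genes. WT and array 1 share an array date and array 2 has another, so the difference of array 1 from WT is the within-date value. Within that date, 45 of the 50 genes were higher than WT, with the median of 1.21 given above, or 0.74 with signals raised to the limit. Over all genes the median on array 1 was 0.08, so most genes were slightly higher there too. This is 1 array against 1, which gives no test. Which part of the gap between array 1 and array 2 goes with the mice, the cultures or the date was not tested.

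A second probe set gives another reading of the same transcript. The 50 genes have 112 probe sets, and 32 genes have more than 1. Of the 62 probe sets not used above, 27 lay under the limit on every array. The 35 others belong to 21 genes, with 25 higher than WT on both mutant arrays, while 8 went opposite ways and 2 were lower on both. A probe set was among the 35 if any array passed the limit, so some dim on WT entered through a RASSF9-/- signal. This favours higher readings, and no share over all probe sets was taken, so the 25 is no independent support. One of the 25, of Kif20b, had signals of 0.9 on WT, 94.4 on array 1 and 4.1 on array 2. Those lower on both were a probe set of Bub3, with signals of 378 on WT, 275.5 on array 1 and 305 on array 2, and one of Top2a, with 129, 72.5 and 91.2. The Top2a reading went against the brightest Top2a probe set, and the annotation used here does not say which part of the gene each measures. Of the 8 that went opposite ways, 2 belonged to Bub3 and 1 each to Cenpa, Hmmr, Kif11, Nek2, Racgap1 and Tpx2. With the mean of all probe sets of a gene in place of the brightest, the fold was over 1.5 times smaller for 11 of the 50 genes and over 1.5 times larger for 4. This mean includes the probe sets that lay under the limit on every array. The log2 difference was 1.46 in place of 3.38 for Top2a, 1.46 in place of 3.53 for Bub1, 1.02 in place of 2.56 for Anln, 0.24 in place of 3.01 for Cenpk and 0.22 in place of 3.26 for Cenpf. For Bub1, Anln, Cenpk and Cenpf, every other probe set was background on all arrays. Cdc20 had 1.14 in place of 1.81 and Cenpa 0.42 in place of 1.68. Foxm1, by contrast, had 0.74 in place of 0.03, and Kif22 had 2.49 in place of 1.52.

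A further list held 103 genes of the same processes, of which 100 had a probe set. Of the 100, 69 were higher on both arrays and 12 lower on both, against 33.4% and 31.8% of all genes, and 19 were opposite. At least 2-fold higher on both were 24 as deposited, and 12 with signals raised to the limit, against 7.02% and 1.4% of all genes. The median log2 difference of the 100 was 0.48, with 0.31 on array 1 and 0.61 on array 2, which is lower than the 1.65 of the 50 genes. With signals raised to the limit the medians were 0.36 and 1.12. The further genes were brighter on WT, with a median signal of 193 against 61.9. Both lists were chosen with earlier results of these data known, so their medians are no even comparison. None of the further genes was called, with a lowest adjusted p of 0.265 (limma) for Pmf1. Of 87 tested, 15 had an unadjusted limma p under 0.05 and were higher, against 3.11% of the tested genes. Here too, genes dim on WT passed the filter through their RASSF9-/- signals. Without the filter, 14 of the 100 were higher at that unadjusted p, against 3.04% of all genes. The difference was smallest in the list of mitotic entry and exit, where 11 of 21 genes were higher on both arrays and the median was 0.20. It was 0.52 for kinetochore and centromere genes (23 of 26 higher on both), 0.53 for cohesion and condensin (13 of 20) and 0.56 for spindle, centrosome and cytokinesis (22 of 33).

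Some genes of the further list were as far from WT as the 50. Pmf1, a subunit of the MIS12 kinetochore complex, had signals of 45.9 on WT, 425.5 on array 1 and 425 on array 2, at least 5.42-fold above WT. Zwilch, of the complex that recruits checkpoint proteins to kinetochores, was at least 3.15-fold above WT. Nsl1 and Dsn1, which also belong to the MIS12 complex, had lower signals on both arrays, with log2 differences of -0.98 (SE 0.61) and -0.38 (SE 0.53). The Nsl1 value was 0.11 with the mean of all its probe sets. Read from the brightest probe sets, subunits of that complex thus had differences of both signs, none past the test. Pbk, a mitotic kinase, had signals of 43.1, 213 and 475, at least 4.06-fold above WT. Cks1b, a small partner of cyclin-dependent kinases, was bright throughout, with signals of 2247, 6149.5 and 5815, a log2 difference of 1.41 (SE 0.32, adjusted p = 0.376). Fbxo5, which inhibits the anaphase-promoting complex, and Ccnb2, a mitotic cyclin, were at least 2.60-fold and at least 2.34-fold above WT. Cks2, a paralog of Cks1b, had a log2 difference of 0.73, and Trip13 and Cenpq of the kinetochore list had 1.28 and 1.18.

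Of the 20 cohesion and condensin genes, 13 were higher on both arrays and 3 lower on both, against 33.4% and 31.8% of all genes. The other 4 were opposite, and the genes named by rule are the ends of that list. Smc2 and Ncaph, subunits of condensin, had log2 differences of 1.40 (SE 0.47) and 1.21 (SE 0.56), and Ncapg2, of condensin II, had 1.74 (SE 0.61). With the mean of all its probe sets the Smc2 difference turned to -0.29. Cdca5, the sororin that protects cohesion, had 1.76 (SE 0.58). Stag2 and Rad21, core cohesin subunits, had -0.26 (SE 0.34) and -0.20 (SE 0.33), both smaller than their errors. Other cohesin subunits, Smc3, Stag1 and Smc1a, looked up after the values were seen, had 0.43 (SE 0.39), 0.38 (SE 0.38) and 0.03 (SE 0.39). Smc1a went opposite ways on the RASSF9-/- arrays. Incenp, the scaffold of the passenger complex with Birc5 and Cdca8, had signals of 226, 495 and 728, or 2.66-fold above WT. Stil, needed for centriole duplication with Plk4, had a log2 difference of 1.35, and Ckap2, a spindle protein, had 1.40. Lower signals were measured for Cep152 (-0.56, SE 0.62), Cdc25b (-0.45, SE 0.63) and Anapc7 (-0.08, SE 0.37), and for Kifc1, whose array 2 signal lay under the limit. None of these lower values exceeded its error.

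For comparison, 25 genes of DNA replication and origin licensing, the steps before mitosis, had a median log2 difference of 1.30, with 0.74 on array 1 and 1.56 on array 2. Of them, 22 were higher on both arrays and 10 at least 2-fold, against 33.4% and 7.02% of all genes. With signals raised to the limit their median was 1.0, close to the 1.12 of the 50 mitotic genes. At least 2-fold higher on both were then 9 of the 25 and 15 of the 50, against 1.4% of all genes.

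**Figure D4:**
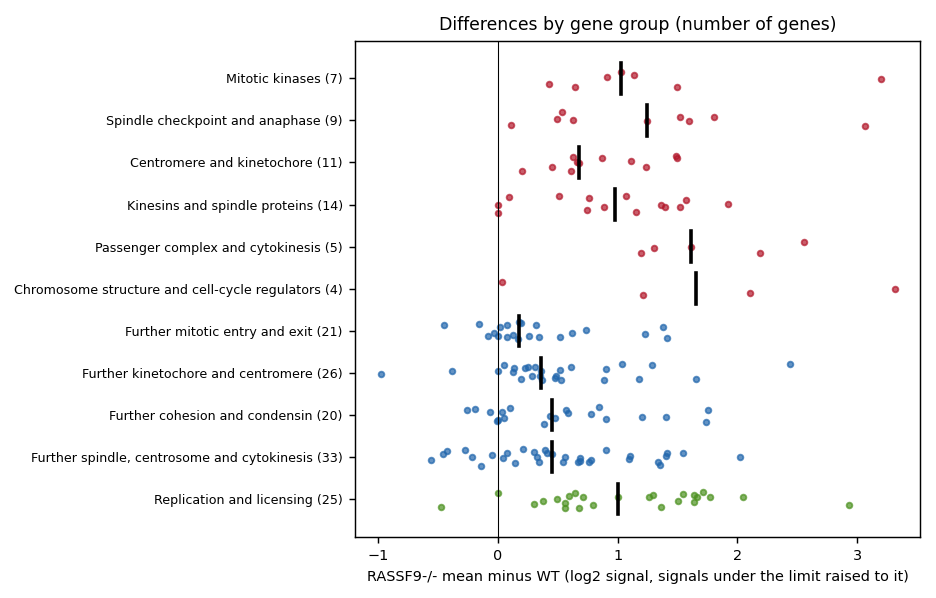
Differences in log2 signal, RASSF9-/- mean minus WT with signals under the limit raised to it, of each gene (points) and their median (bars), for 6 role groups of the 50 genes, 4 further lists of mitotic genes and the replication genes. Medians with this limit range from 0.67 to 1.66 in the 6 role groups and from 0.18 to 0.45 in the further lists.

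Values of the labels, cell types and RNA stand beside these results. Rassf9 had signals of 478 on WT, 59.6 on array 1 and 120.2 on array 2, at least 4.93-fold lower in RASSF9-/-. Keratinocyte markers were present on all arrays, with 11 of 12 above the limit (Krt15 was under it on each) and a summed signal of 177151 to 213611. Of the 12, 8 were lower on both RASSF9-/- arrays and 1 was higher on both, against 31.8% and 33.4% of all genes. The 8 include Krt15, which is background, and Krt5, whose array 2 signal was close to WT. The median log2 difference of the 12 was -0.16. Trp63, the transcription factor of basal keratinocytes, had signals of 3239, 1459.9 and 1543 on WT, array 1 and array 2, or 2.16-fold lower in RASSF9-/- (adjusted p = 0.689, limma). Krt5 and Krt14, the basal keratins, had signals of 34842, 27759.7 and 34616 and of 38140.1, 38752 and 38300.2 in the same order. All 8 melanocyte markers were above the limit on every array, with sums of 29748 on WT, 25346 on array 1 and 35634 on array 2. Of 10 leukocyte markers, 3 were above the limit on WT, 7 on array 1 and 4 on array 2, with sums of 1538.5, 2599 and 3014, and Ptprc, Cd52 and Cd207 were under it on all. Lyz2, the lysozyme of myeloid cells, was the 1 leukocyte marker called higher, with signals of 9.6, 786 and 638, at least 9.03-fold above WT (adjusted p = 0.0359, limma). The 9 fibroblast markers measured summed to 2264, 1640.0 and 1315 in the same order, with 8, 9 and 7 above the limit. The 8 endothelial markers summed to 627, 557 and 691, with 3, 5 and 3 above it and Pecam1, Cdh5 and Vwf under it on all. The part of melanocytes, leukocytes and fibroblasts in the mitotic signals was not tested. The ratio of 3' to 5' control probe sets lay between 0.832 and 0.939 for Gapdh and between 1.36 and 1.43 for beta-actin.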

How the data were processed

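The authors deposited MAS5 signals, an intensity on a linear scale for each of 45101 probe sets, scaled to a common trimmed mean. The labels name MAS5 with no version. GeneSpring, which the methods name, was not used here. Log2 signals were taken with no further normalization and no pseudocount. Control probe sets (64) were left out, and symbols came from the platform annotation: 34945 probe sets carry 1, 932 several and 9160 none. The brightest probe set was taken per gene. The genotypes were tested with limma 3.58.1 (R 4.3.3; lmFit, then eBayes with trend), two-sided and adjusted by Benjamini-Hochberg over the 11089 genes whose mean log2 signal reached the 50th percentile of probe sets (a signal of 82.7). The fit has 1 residual and 5.32 prior degrees of freedom, and array date is no term because it would leave none. The number of arrays, 3, limits the precision. Counts and medians over lists carry no test and cover every gene with a probe set.

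The 50 genes, the lists and the background limit were chosen with earlier results of these data known. Every one of the 50 could be named. Of each further list, genes were ranked by whichever of their 2 differences was smaller, with signals raised to the limit, and up to 4 from the top and up to 2 with the largest drop were named. The count over genes with a WT signal above the limit was added after the data were seen. Alternatives were scaling by medians or quantiles, a pseudocount of 32, the filter dropped or set to the 75th percentile, probe sets averaged per gene, the limit as a floor, no trend, the methods' t-test, fold thresholds of 1.5 and 3, and leaving out each RASSF9-/- array. Promoter windows are those of RefSeq, build GRCm38.p6, which was not used to place probe sets.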

Additional observations from a re-analysis of the deposited data

How the results depend on the processing

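The count of mitotic genes called by limma, 0 higher and 0 lower, was also 0 under every alternative run. Quantile scaling, the limit as a floor and no trend called 0 of all genes, so that those settings say nothing here. The count at least 2-fold higher on both arrays, 31, was 15 with signals under the limit raised to it and 19 at a 3-fold threshold, by construction of those limits, 22 with the pseudocount and 23 with the mean of probe sets. It was 31 to 46 when 1 RASSF9-/- array was left out, and 45 to 49 genes, in place of 44, were then higher than WT. With signals raised to the limit 37 were higher on both. The median log2 difference of 1.65 ranged from 1.12, with signals raised to the limit, to 2.13, with array 1 left out. With array 2 left out it was 1.21. That of the further genes, 0.48, ranged from 0.31 with array 2 left out to 0.61 with array 1 left out. Of 518 values of 74 named genes under the alternatives, 8 turned, with values of 0.0 counted among the 510 that did not. Most could not turn, so the 510 is no measure of robustness. Leaving out an array, the floor and the pseudocount cannot reverse a gene with the same direction on both arrays. Averaging cannot change a gene with 1 probe set. Sizes did change: the mean of probe sets, those under the limit included, made the fold over 1.5 times smaller for 11 of the 50 genes and larger for 4. With 1 RASSF9-/- array left out, values ranged over 0 for Bub3 (-0.01 to 0.23), Cenpn (-0.15 to 1.47), Kif15 (-0.37 to 0.45), Kif18a (-0.39 to 1.30), Kif23 (-0.42 to 2.63) and Foxm1 (-0.15 to 0.21); the other 2 that turned were Nsl1 (0.11) and Smc2 (-0.29) with the mean of all probe sets, on the log2 scale. Why the probe sets of Nsl1 and Smc2 differ was not tested. Leaving out an array leaves 1 against 1, which gives values with no test. No paired analysis was possible because WT has 1 array and the groups share fewer than 2 replicate numbers. The WT array cannot be left out, so its own error is unknown, and a signal near the limit sets no firm size for a difference.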
